A study of Danio rerio with 7 samples.

Results

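The genes described here are the machinery that carries newly made proteins out of the cell, measured in cells of the postnb lineage sorted from zebrafish (Danio rerio) hearts at 60 and 7 days after cryoinjury (dpi). They are all gene IDs of the deposited table whose name matches a fixed pattern of signal recognition particle, translocon, signal peptidase, ER folding, COPII, COPI, cargo receptor and ER-linked transcription factor genes. The pattern took 92 of 31388 IDs by name alone, but it was chosen with earlier results of these data known. The 60 dpi group had 3 libraries, numbered 1, 2 and 4, and the 7 dpi group had 4, numbered 1 to 4, each from a pool of 3 to 5 hearts. Every fish in both groups carried postnb:CreERT2 and ubb:loxP-GFP-loxP-mCherry, was 3 to 9 months old, and had been given 10 µM 4-hydroxytamoxifen (4-OHT) overnight at 3 and 4 dpi. The mCherry-positive cells of the ventricular apex were sorted, so a cell counts as labelled if the postnb promoter drove the recombinase at that time, whatever the cell expressed later.

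Secreted and membrane proteins enter the endoplasmic reticulum (ER) through the SEC61 channel, guided there by the signal recognition particle, and are folded by chaperones such as calnexin and the protein disulfide isomerases. COPII-coated vesicles then carry them to the Golgi, with cargo receptors of the lectin and p24 families, while COPI-coated vesicles and the KDEL receptors return escaped ER proteins. Transcription factors held in or activated from the ER, XBP1 and the CREB3 family, adjust the capacity of this system. Activated fibroblasts, which fill a healing heart wound with collagen and fibronectin, are among the cells that depend on it.

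Values were TPM, a length-corrected abundance scaled to a fixed sum in each library, and TPM keeps no record of sequencing depth. Pools started from 0.2 to 0.6 ng of RNA, and the number of IDs with a TPM of at least 1 ranged from 10840 to 14061 at 60 dpi and from 9844 to 15431 at 7 dpi. Replicate 4 had the fewest in each group, and it also listed the most secretory genes at 0, with 14 of 92 at 60 dpi and 13 of 92 at 7 dpi. Fibroblast markers were abundant at both times, with a summed level of 6856 to 8482 TPM at 60 dpi, against 6296 to 8669 TPM at 7 dpi. Single markers went both ways. Of 13 tested fibroblast marker IDs, 3 were called higher (PDGFRA, DCN and DPT) and 2 lower (1 FN1 and 1 POSTN ID). Macrophage markers were also present in these sorted pools, at a summed 2309 to 5133 TPM at 60 dpi, against 8920 to 12490 TPM at 7 dpi. Most of that sum was cd74a and cd74b. They had 1335 to 3209 and 559 to 992 TPM at 60 dpi, against 4094 to 4809 and 1888 to 2887 TPM at 7 dpi. Of 17 tested macrophage marker IDs, 13 were called lower and none higher. Cardiomyocyte markers summed to 374, 4288 and 3222 TPM in 60 dpi replicates 1, 2 and 4, and to 356 to 744 TPM at 7 dpi. Of the other marker lists, neutrophil markers summed to 16.1 to 49.3 TPM at 60 dpi, against 58.7 to 186 TPM at 7 dpi. Of these, npsn and both cxcr1 IDs were listed at 0 in every 60 dpi library, and also in 1 or 2 libraries at 7 dpi. The markers mmp13a and nccrp1 were above 0 throughout, with overlapping groups. B and plasma cell markers summed to 12.8 to 36.8 TPM at 60 dpi, against 89.6 to 202 TPM at 7 dpi. Here cd79b, PAX5 and cd37 were at 0 throughout 60 dpi, and PAX5 also in 1 library at 7 dpi. In contrast, cd79a overlapped, at 11.9 to 33.2 TPM at 60 dpi, against 6.17 to 58.2 TPM at 7 dpi. T and NK cell markers summed to 12.8 to 80.8 TPM at 60 dpi, against 149 to 554 TPM at 7 dpi. Here lck, nkl.4 and CCR7 were at 0 throughout 60 dpi, and lck and CCR7 also in 1 and 2 libraries at 7 dpi. The T cell marker cd8a had 0 to 12.4 TPM at 60 dpi, against 0 to 2.97 TPM at 7 dpi. Erythrocyte markers summed to 686 to 6104 TPM at 60 dpi, against 3196 to 7187 TPM at 7 dpi. Endothelial markers summed to 142 to 147 TPM at 60 dpi, against 23.5 to 141 TPM at 7 dpi, and mural cell markers to 1209 to 1577 TPM at 60 dpi, against 495 to 1274 TPM at 7 dpi. Of the mural cell sum, rgs5b alone had 642 to 940 TPM at 60 dpi, against 63.5 to 157 TPM at 7 dpi. Of 9 tested mural cell IDs, 6 had higher estimates at 60 dpi. The 3 with lower estimates were acta2, 1 TAGLN and 1 MYH11 ID.

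Of the secretory genes, 3 differed between the stages at the threshold used. SEC61G, the small gamma subunit of the translocation channel, and creb3l3b, a gene of the ER-bound CREB3 family, were higher at 60 dpi, and LMAN2, a lectin that escorts glycoproteins between ER and Golgi, was lower. A gene was called when limma's Benjamini-Hochberg adjusted p over all genes was under 0.05. Of the 92 genes 86 passed the filter of 1 TPM in 3 libraries, and 2 of these were called higher and 1 lower, or 3.49% of them, against 6.88% of all 15130 genes tested. Of all genes, 3.2% were called higher and 3.68% lower. With TPM rescaled over the IDs that carry a symbol, only the 14050 named genes past the filter were tested. The same 2 secretory genes were then called higher and 6 were called lower. That was 9.3% of secretory genes, against 8.54% of named genes. The order of the 2 shares thus differed in this setting, in which the scaling and the genes compared changed together. Of the calls among the named genes 31.5% were higher, in place of 46.5% among all 15130. There were 378 higher and 822 lower, in place of 484 and 557. The 6 were LMAN2, COPA, creb3l3l, CANX, TMED10 and calr3a. In this setting the median log2 fold change of the named genes was -0.27, in place of -0.04 for all genes as deposited. An unadjusted p under 0.05 was found for 3 secretory genes that were higher and 12 that were lower, against 9.6% and 12.4% of all genes.

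The direction of the estimates was less even. On the log2(TPM + 1) scale, on which a fold change is 60 minus 7 dpi, the median over the 86 tested genes was -0.52, with quartiles of -1.04 and 0.08. The median over all genes tested was -0.04, with quartiles of -0.92 and 0.78. A negative estimate was found for 63 of the 86 secretory genes (73.3%), against 51.7% of all genes. In 12 genes every 60 dpi library lay below every 7 dpi library, and in 4 every one lay above, where 11.0% and 10.3% of all tested genes did so. Measured against the median of the genes tested in each setting, the secretory median stood at -0.48 as deposited. Over the 18 alternatives it ran from -0.60 with quantile normalization to -0.26 without 7 dpi replicate 4 alone. It was -0.52 with scaling over named IDs and -0.31 without replicate 4 of both groups. These are bulk pools, in which fewer cells of a type and less RNA per cell cannot be told apart, and macrophage markers were lower at 60 dpi in the same libraries. Their part in the lower estimates was not tested.

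**Figure D1:**
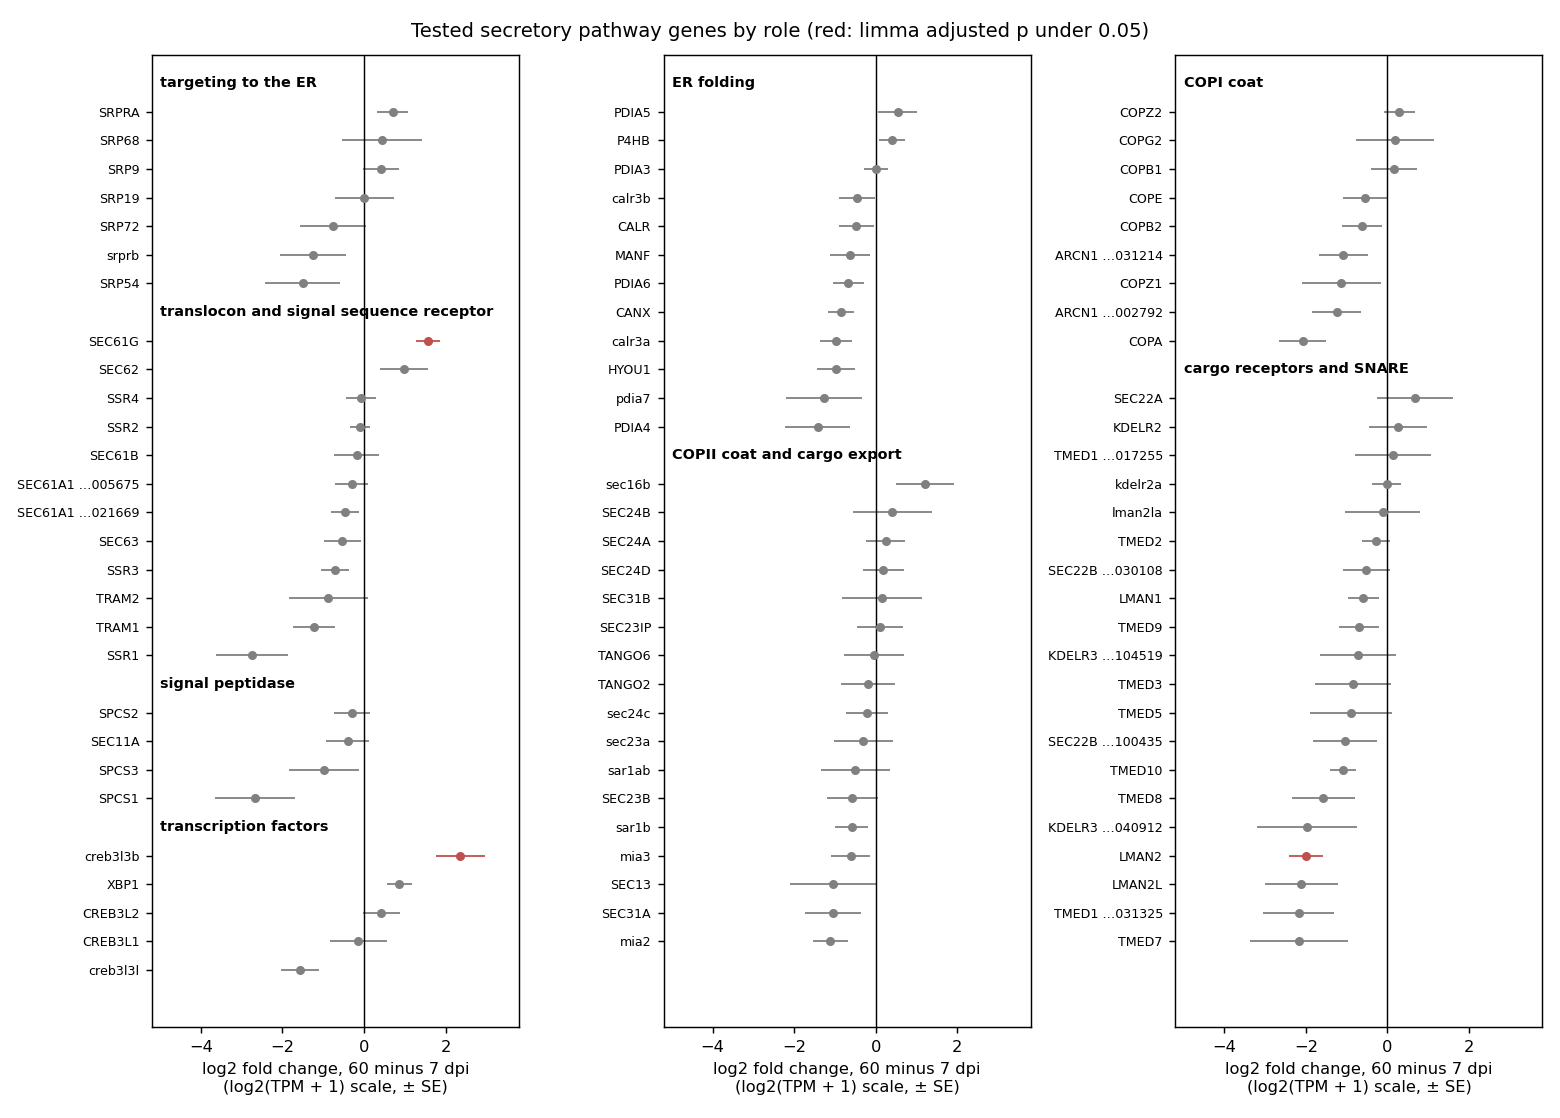
Log2 fold change of each tested secretory gene (60 minus 7 dpi on the log2(TPM + 1) scale, horizontal axis) with its standard error, grouped by role; gene IDs that share a symbol are told apart by the last digits of the ID. The 3 genes in red passed an adjusted p of 0.05, and 63 of 86 points lie left of 0.

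In total, the secretory genes held 4372 to 4993 TPM at 60 dpi, against 3731 to 6222 TPM at 7 dpi, or 0.437 to 0.499% and 0.373 to 0.622% of a library. On TPM as deposited the groups overlapped, and SEC61G alone contributed 1034 to 1404 TPM at 60 dpi, against 273 to 594 TPM at 7 dpi. IDs without a symbol held 15.8 to 19.2% of a library at 60 dpi, against 20.2 to 40.0% at 7 dpi. Taken as a share of named IDs alone, the sum of every 60 dpi library was below that of every 7 dpi library. The gap was narrow, and it was wider without SEC61G. Without SEC61G the deposited sum was 3321 to 3590 TPM at 60 dpi, against 3401 to 5627 TPM at 7 dpi. The sum of all other secretory genes was highest in 7 dpi replicates 1 and 4, while the 3 libraries at 60 dpi lay close together. High values in 7 dpi replicate 1 were not particular to these genes. Over all genes detected in every library, the median ratio to the gene's geometric mean was 1.39 there, and 0.938 to 1.12 in the other libraries.

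Targeting to the ER came first in the pathway, and none of its 7 genes was called. Of these, 4 had a positive and 3 a negative estimate, and their summed level was 185 to 204 TPM at 60 dpi, against 144 to 224 TPM at 7 dpi. SRPRA, the receptor on the ER membrane that captures the recognition particle, had 55.2, 79.7 and 85.3 TPM at 60 dpi, against 62.1, 29.1, 43.8 and 47.2 TPM at 7 dpi. On TPM as deposited, only 7 dpi replicate 1 reached into the range of the 60 dpi libraries. The log2 fold change was 0.70 (± 0.38 SE), at a limma adjusted p of 0.315. SRP54, the subunit that binds the signal sequence, had 31 and 44.5 TPM in 60 dpi replicates 1 and 2 but 0.68 TPM in replicate 4, against 29.2 to 41.4 TPM at 7 dpi. srprb, the partner of SRPRA in the receptor, had 6.16 and 2.54 TPM in replicates 1 and 2 and 53.9 TPM in replicate 4 of 60 dpi, against 17.9 to 39.7 TPM at 7 dpi.

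SEC61G rose, and no other of the 12 translocon and signal sequence receptor genes was called. Estimates were negative in 10 of the 12, with a median of -0.39. SEC61G had 1034, 1404 and 1051 TPM in the 60 dpi libraries and 594, 331, 421 and 273 TPM in the 7 dpi libraries. Every 60 dpi library lay far above every 7 dpi library. The means were 1163 ± 209 TPM (SD, n = 3) and 405 ± 140 TPM (SD, n = 4), which gave a log2 fold change of 1.57 (± 0.30 SE), at a limma adjusted p of 0.00976. It was the most abundant secretory gene at 60 dpi, while SSR2 was at 7 dpi, and it ranked 126th of all IDs by mean TPM at 60 dpi and 238th at 7 dpi. The call held without any single library and without replicate 4 of both groups, and was lost in 2 of 18 alternatives, among them the one without the mean-variance trend (adjusted p = 0.126).

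The channel pore itself is SEC61A1, present as 2 IDs in zebrafish. ENSDARG00000021669 had 160, 154 and 77.2 TPM at 60 dpi, against 210, 132, 146 and 219 TPM at 7 dpi, and ENSDARG00000005675 had 72.2, 74.6 and 43.9 TPM at 60 dpi, against 82.6, 46.8, 67.4 and 130 TPM at 7 dpi. Both sets of libraries overlapped, with log2 fold changes of -0.47 (95% confidence interval -1.24 to 0.29) and -0.30 (-1.19 to 0.59) and limma adjusted p of 0.473 and 0.739. SEC61B, the beta subunit, had 43.7, 10.9 and 64.7 TPM at 60 dpi, against 26.7 to 42.8 TPM at 7 dpi (log2 fold change -0.18, interval -1.41 to 1.04). The interval of SEC61G, 0.92 to 2.22, overlapped that of SEC61B but neither SEC61A1 interval; the difference between subunits was not tested. The ratio of SEC61G to the sum of both SEC61A1 IDs, on the TPM scale, was 4.46, 6.13 and 8.67 at 60 dpi and 2.03, 1.85, 1.97 and 0.783 at 7 dpi. The 3 proteins form the channel in equal parts, and these are mRNA levels.

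The signal sequence receptor (the TRAP complex, which assists translocation) was uneven too. SSR2, the most abundant of its subunits, had 422, 334 and 430 TPM at 60 dpi, against 468, 395, 429 and 380 TPM at 7 dpi. Its standard error of 0.24 was the smallest among the members, around a log2 fold change of -0.09 with an interval of -0.62 to 0.45. SSR4 averaged 116 ± 35.6 TPM at 60 dpi, against 124 ± 50.0 TPM at 7 dpi, and SSR3 86.84 ± 31 TPM at 60 dpi, against 141 ± 38.5 TPM at 7 dpi (SD, n = 3 and 4), neither of them called (limma adjusted p = 0.947 and 0.26). SSR1, named here after its values were seen, had 47.95, 20.7 and 0.88 TPM at 60 dpi, against 104, 58.3, 58.9 and 136 TPM at 7 dpi. All 60 dpi libraries were below all 7 dpi libraries, yet the spread at 60 dpi was wide and the gene was not called (log2 fold change -2.75 ± 0.88, limma adjusted p = 0.0852). Without 60 dpi replicate 1 it would pass (adjusted p = 0.0282). Of the accessory factors, SEC62, TRAM1, TRAM2 and SEC63 had estimates of 0.98, -1.22, -0.87 and -0.53, none of them called.

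The 4 signal peptidase genes, which cut the signal sequence off, all had negative estimates, from -2.67 to -0.29. SPCS1 was listed at 7.43, 0 and 0 TPM at 60 dpi and at 24.2, 12.2, 17.3 and 3.58 TPM at 7 dpi. The 60 dpi value of replicate 1 lay within the range at 7 dpi, and the gene was not called (limma adjusted p = 0.139). SEC11A, the catalytic subunit, had 23.3, 34.9 and 96.1 TPM at 60 dpi, against 77.8, 32.3, 52.6 and 79.3 TPM at 7 dpi. Its highest value was that of 60 dpi replicate 4.

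**Figure D2:**
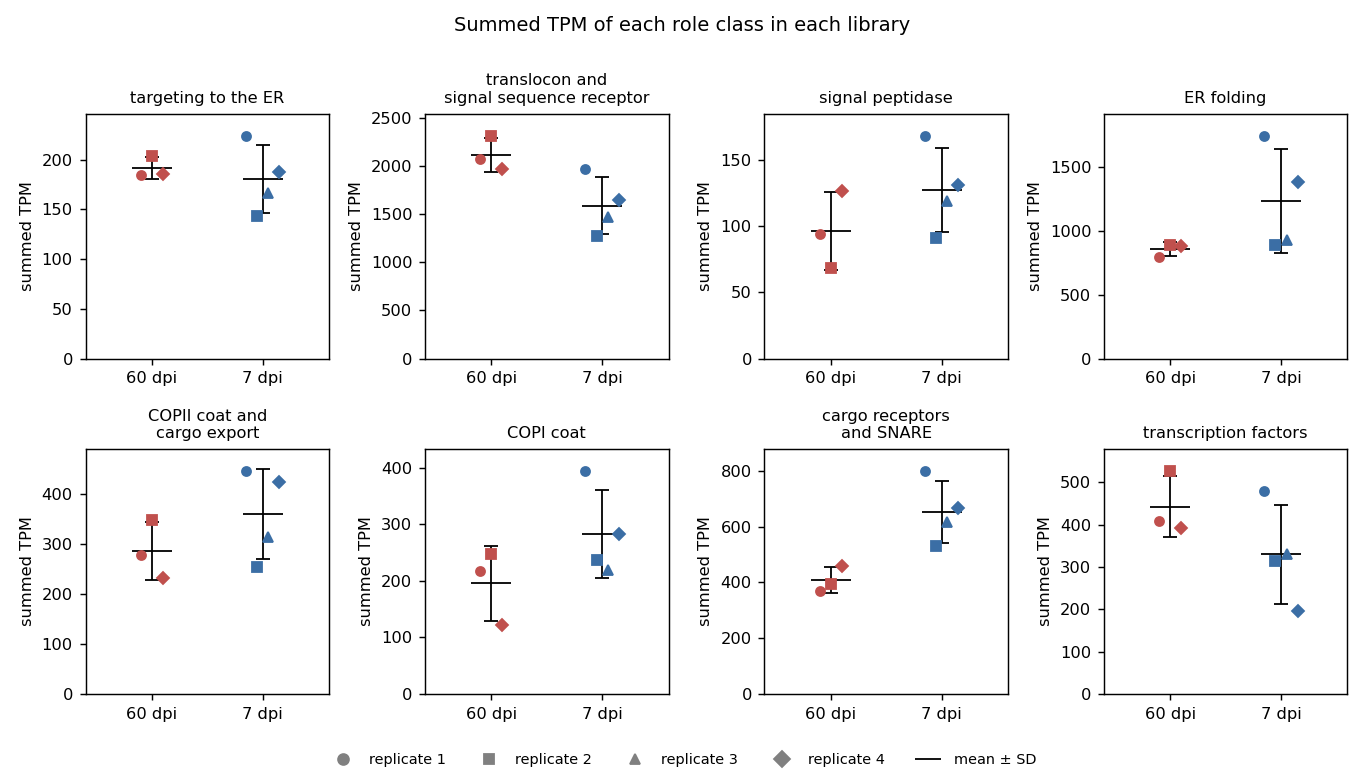
Summed TPM of each role class (vertical axis) in each of the 3 libraries at 60 dpi and 4 at 7 dpi, with the mean and SD of each group. Cargo receptors and SNAREs sum to 370 to 459 TPM at 60 dpi, against 532 to 798 TPM at 7 dpi, and the translocon class to 1972 to 2314 TPM at 60 dpi, against 1274 to 1968 TPM at 7 dpi. In the translocon class SEC61G alone holds 1034 to 1404 TPM at 60 dpi, against 273 to 594 TPM at 7 dpi, and 10 of 12 genes had negative estimates.

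Of 14 ER folding genes 12 were tested and none was called. Their estimates were negative in 10, with a median of -0.66, and the class held 791 to 891 TPM at 60 dpi, against 885 to 1742 TPM at 7 dpi. CANX, the membrane-bound lectin chaperone calnexin, had 126, 118 and 171 TPM at 60 dpi, against 348, 198, 189 and 281 TPM at 7 dpi. The groups did not overlap, although the gap between the highest 60 dpi and the lowest 7 dpi library was small. Its log2 fold change was -0.85 (± 0.31 SE), at a limma adjusted p of 0.135. It passed with quantile normalization and with scaling over named IDs (adjusted p = 0.0254 and 0.02).

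HYOU1, a large ER chaperone induced by low oxygen and ER stress, had 91.5, 200.2 and 69.3 TPM at 60 dpi, against 409, 146, 137 and 257 TPM at 7 dpi, with overlap through 60 dpi replicate 2 (limma adjusted p = 0.234). Calreticulin, the soluble partner of calnexin, was represented by CALR at 33.03, 38.2 and 35.2 TPM at 60 dpi, against 68.4, 35.1, 31.7 and 80.2 TPM at 7 dpi. The 60 dpi libraries were nearly level and sat at the lower end of the 7 dpi range. Of the paralogs, calr3a had estimates of -0.97 ± 0.39 and calr3b of -0.45 ± 0.44 (SE, limma adjusted p = 0.171 and 0.604).

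The protein disulfide isomerases, which form and shuffle disulfide bonds, differed in the sign of their estimates. PDIA3 averaged 199 ± 17.4 TPM at 60 dpi (SD, n = 3) and 204 ± 53.9 TPM at 7 dpi (SD, n = 4), and the interval of its log2 fold change ran from -0.63 to 0.63. P4HB, which is also the beta subunit of collagen prolyl hydroxylase, had 108, 115 and 113 TPM at 60 dpi, against 118, 83.0, 71.1 and 73.8 TPM at 7 dpi. On TPM as deposited, only 7 dpi replicate 1 exceeded the 60 dpi libraries, and the log2 fold change was 0.40 (interval -0.29 to 1.08, limma adjusted p = 0.512). PDIA6 averaged 41.5 ± 10.7 TPM at 60 dpi, against 67.3 ± 19.7 TPM at 7 dpi (adjusted p = 0.33). PDIA4 had 20.1, 3.93 and 99.5 TPM at 60 dpi, against 75.4, 32.8, 61.4 and 71.1 TPM at 7 dpi. Its 60 dpi libraries held both the highest and the lowest values of the 7. It was not called (adjusted p = 0.328), but without 60 dpi replicate 4 it would be, as lower (adjusted p = 0.0425). PDIA5 had 22.8, 22.8 and 18.2 TPM at 60 dpi, against 16.1, 15.1, 13.2 and 12.9 TPM at 7 dpi, groups that did not overlap, with an adjusted p of 0.564. MANF, a small ER stress-induced secreted protein, averaged 19.2 ± 4.42 TPM at 60 dpi, against 32.8 ± 17.1 TPM at 7 dpi (adjusted p = 0.496).

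COPII genes, which build the coat of vesicles leaving the ER, gave no call among 17 tested. The estimates were negative in 11 and positive in 6, with a median of -0.21. The lowest p belonged to mia2, an organizer of ER exit sites, with 37.6, 36.9 and 22.3 TPM at 60 dpi, against 78.1, 40.2, 59.0 and 122 TPM at 7 dpi. The groups did not overlap, by a narrow gap, and the log2 fold change was -1.11 (± 0.44 SE), at a limma adjusted p of 0.162. Its relative mia3 (TANGO1), the receptor that loads bulky procollagen into COPII carriers, averaged 14.4 ± 4.20 TPM at 60 dpi, against 22.1 ± 3.19 TPM at 7 dpi (adjusted p = 0.508).

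The inner coat genes sec23a, SEC23B, sec24c and SEC24D had log2 fold changes of -0.30, -0.57, -0.21 and 0.19, with limma adjusted p of 0.661 or more. The estimate of SEC24D turned to -0.07 with scaling over named IDs, and those of sec23a and SEC23B turned positive without replicate 4 of both groups. sec23a and SEC24D are known from zebrafish mutants and human disease for their role in collagen export and skeletal growth. SEC24D had 31.5, 56.1 and 17.3 TPM at 60 dpi, against 41.7, 22.8, 20.7 and 28.7 TPM at 7 dpi, so its 60 dpi libraries spanned the whole 7 dpi range. sar1b, the GTPase that starts coat assembly, had 45.8, 58.8 and 69.2 TPM at 60 dpi, against 155, 55.9, 71.6 and 89.2 TPM at 7 dpi (adjusted p = 0.429). SEC13 and SEC31A, of the outer coat, both had estimates of -1.04, with standard errors of 1.05 and 0.69.

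In the COPI coat, which returns material from the Golgi to the ER, the lowest p was that of COPA. This alpha subunit had 16.9, 7.80 and 2.99 TPM at 60 dpi, against 42.7, 31.6, 35.5 and 31.8 TPM at 7 dpi. The groups did not overlap, with a wide spread at 60 dpi. The means were 9.23 ± 7.06 TPM (SD, n = 3) and 35.4 ± 5.19 TPM (SD, n = 4), and the log2 fold change of -2.08 ± 0.57 missed the threshold narrowly (limma adjusted p = 0.0502). It passed in 7 of 18 alternatives, among them the one without 60 dpi replicate 1 (adjusted p = 0.0301). Other subunits overlapped between groups. COPB2 averaged 24.97 ± 9.40 TPM at 60 dpi, against 39.9 ± 17.2 TPM at 7 dpi (adjusted p = 0.511). The 2 ARCN1 IDs, which encode the delta subunit, had estimates of -1.25 and -1.09, while COPZ2, COPG2 and COPB1 had 0.29, 0.19 and 0.16. None of the 9 COPI genes was called.

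LMAN2 fell, the only call among the cargo receptors. Of 20 tested genes in this class 17 had negative estimates and 6 had groups that did not overlap, all lower at 60 dpi, with 1 call. Of all genes tested, 11.0% had groups apart and lower and 3.68% were called lower. LMAN2 (VIP36) had 14.6, 12.7 and 15.3 TPM at 60 dpi, against 79.4, 43.6, 54.2 and 67.3 TPM at 7 dpi. The 3 libraries at 60 dpi were nearly equal, and the lowest 7 dpi library was well above them. The means were 14.2 ± 1.37 TPM (SD, n = 3) and 61.1 ± 15.6 TPM (SD, n = 4), which gave a log2 fold change of -2.0 (± 0.41 SE), at a limma adjusted p of 0.013. This call also held without any single library, and was lost in 2 of 18 alternatives, among them the one without the mean-variance trend (adjusted p = 0.0592).

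LMAN1 (ERGIC-53), the related lectin that carries clotting factors and other glycoproteins out of the ER, had 40.7, 29.3 and 27.9 TPM at 60 dpi, against 42.9, 44.8, 44.9 and 65.5 TPM at 7 dpi. The groups were separated by a small gap, and the log2 fold change was -0.59 (± 0.38 SE), at a limma adjusted p of 0.409. The TPM ratio of LMAN2 to LMAN1 was 0.358, 0.433 and 0.549 at 60 dpi and 1.85, 0.973, 1.21 and 1.03 at 7 dpi. Of the 2 LMAN2-like genes, LMAN2L, with 2.98, 1.74 and 0.06 TPM at 60 dpi, against 8.0, 7.86, 3.21 and 26.2 TPM at 7 dpi, had groups apart at low levels (adjusted p = 0.194). The other, lman2la, had 6.08, 0.09 and 0.12 TPM at 60 dpi, against 0.1, 3.46, 3.99 and 0 TPM at 7 dpi, and its groups overlapped (log2 fold change -0.12).

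Among the p24 proteins of the TMED family, which sort cargo such as GPI-anchored proteins, TMED10 had 70.6, 70.8 and 64.9 TPM at 60 dpi, against 177, 108, 128 and 188 TPM at 7 dpi. As for LMAN2, the 60 dpi libraries were level and all below the 7 dpi libraries. The means were 68.8 ± 3.38 TPM (SD, n = 3) and 150.1 ± 38.5 TPM (SD, n = 4), which gave a log2 fold change of -1.08 (± 0.32 SE), at a limma adjusted p of 0.0647. It passed under all 3 other scalings (adjusted p from 0.0103 to 0.0352). TMED2, its partner in the p24 complex, had 89.1, 58.4 and 127 TPM at 60 dpi, against 140, 86.4, 101 and 103 TPM at 7 dpi, and overlapped (adjusted p = 0.71). TMED8 and one TMED1 ID (ENSDARG00000031325) also had groups apart and lower at 60 dpi, at 1.02 to 9.88 and 0 to 0.78 TPM against 10.0 to 14.5 and 0.93 to 16.5 TPM at 7 dpi.

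KDEL receptors, which retrieve chaperones bearing the KDEL tail, showed no common direction. kdelr2a averaged 68.9 ± 21.5 TPM at 60 dpi, against 68.1 ± 10.2 TPM at 7 dpi, with an interval of -0.79 to 0.75. KDELR2 had 12.4, 44.4 and 88.2 TPM at 60 dpi, against 64.3, 24.3, 48.2 and 11.1 TPM at 7 dpi, each group spanning most of the other. The 2 KDELR3 IDs were scattered, with ENSDARG00000040912 listed at 6.78, 0 and 0 TPM at 60 dpi, against 0.15, 5.59, 10.98 and 39.7 TPM at 7 dpi. For ENSDARG00000104519 the values were 1.02, 12.3 and 5.74 TPM at 60 dpi, against 10.6, 24.1, 7.86 and 1.97 TPM at 7 dpi.

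**Figure D3:**
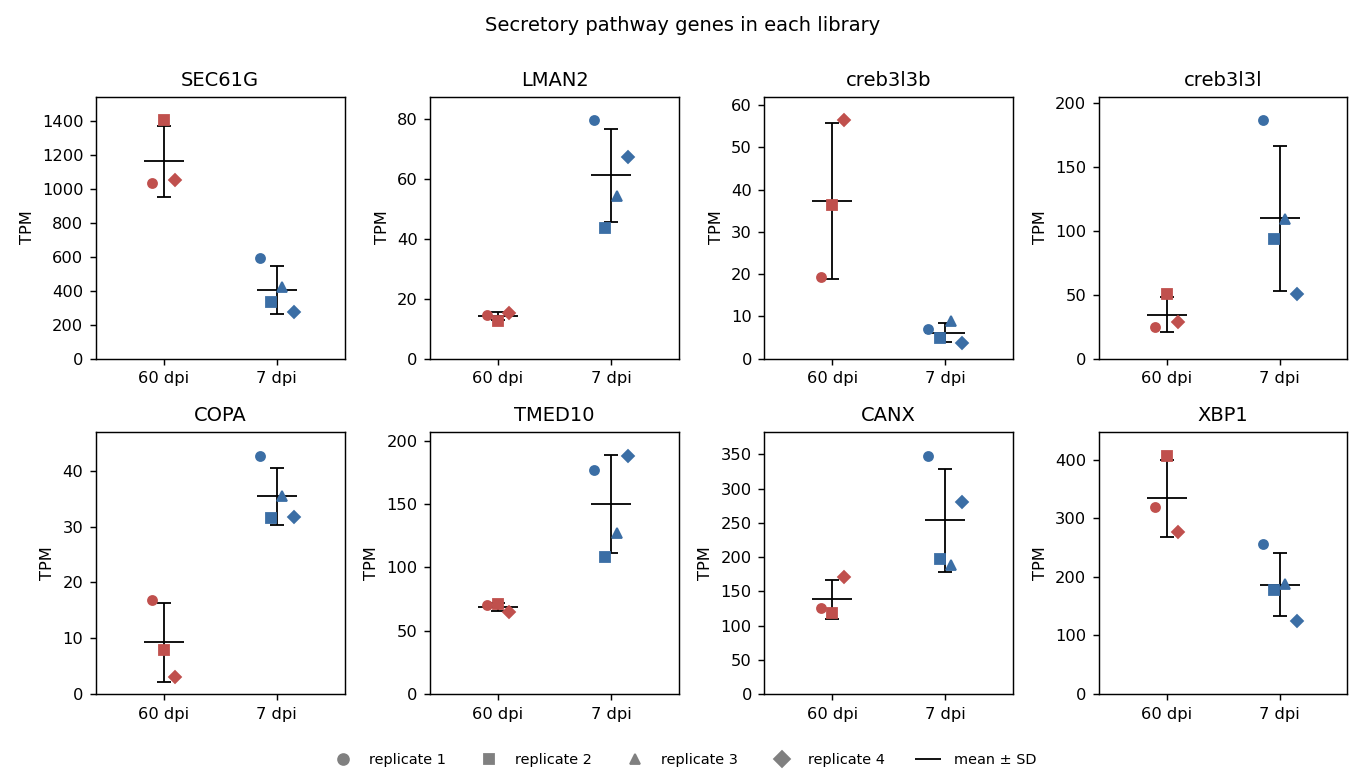
TPM (vertical axis, from 0) of 8 secretory genes in each library at 60 dpi (red) and 7 dpi (blue), with mean and SD; marker shapes give the replicate. The 8 were picked from the 86 tested secretory genes. The groups do not overlap in any of the 8, and limma called SEC61G, LMAN2 and creb3l3b. Of all 86, 12 had groups apart and lower at 60 dpi and 4 apart and higher, against 11.0% and 10.3% of all genes tested.

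Among the transcription factors creb3l3b rose. It had 19.3, 36.3 and 56.4 TPM at 60 dpi, against 6.94, 4.84, 8.94 and 3.77 TPM at 7 dpi. Every 60 dpi library was above every 7 dpi library, with a wide spread at 60 dpi. The means were 37.3 ± 18.6 TPM (SD, n = 3) and 6.12 ± 2.29 TPM (SD, n = 4), which gave a log2 fold change of 2.36 (± 0.60 SE), at a limma adjusted p of 0.0363. The call was lost in 9 of 18 alternatives, among them those without 60 dpi replicates 2 or 4 (adjusted p = 0.123 and 0.133) and without 7 dpi replicates 1, 2 or 3 (0.0593, 0.0845 and 0.0653).

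The paralog creb3l3l had a negative estimate and, like SSR1, was named here after its values were seen. It had 24.4, 50.2 and 28.2 TPM at 60 dpi, against 186, 93.4, 109 and 50.3 TPM at 7 dpi. The groups only just did not overlap, because 7 dpi replicate 4 nearly met 60 dpi replicate 2. The log2 fold change was -1.57 (± 0.46 SE), at a limma adjusted p of 0.0649, and without 7 dpi replicate 4 it passed (adjusted p = 0.0279). On the TPM scale the ratio of creb3l3b to creb3l3l was 0.792, 0.723 and 2.0 at 60 dpi and 0.0373, 0.0518, 0.0822 and 0.075 at 7 dpi. This pair was chosen with its opposite estimates known, so the ratio adds nothing to them. Mammalian CREB3L3 is known from liver and intestine, where it drives genes of lipid and iron handling. The third paralog, creb3l3a, was listed at 0 in 6 of the 7 libraries and was not tested.

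XBP1, whose spliced form drives ER expansion in secretory cells, was the most abundant of these factors. It had 319, 406 and 277 TPM at 60 dpi, against 256, 177, 188 and 125 TPM at 7 dpi. All 60 dpi libraries were above all 7 dpi libraries, by a narrow gap. The means were 334 ± 66.0 TPM (SD, n = 3) and 187 ± 54.0 TPM (SD, n = 4), which gave a log2 fold change of 0.87 (± 0.31 SE), at a limma adjusted p of 0.122, and it was not called under any of the 18 alternatives. The table gives levels per gene, so the spliced and unspliced forms are not separated. CREB3L2, which in mammals and fish promotes collagen secretion in cartilage, averaged 35.8 ± 9.63 TPM at 60 dpi, against 26.8 ± 8.75 TPM at 7 dpi (adjusted p = 0.64). CREB3L1 stayed at or below 2.14 TPM in every library.

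The other genes of the pathway were taken from 8 lists of ER stress, chaperone, glycosylation, degradation, vesicle, Golgi, ER shaping and matrix cargo genes. Apart from the cargo list, 228 of 249 IDs were tested, and 5 were called higher and 1 lower (2.63%). Of all genes tested 6.88% were called, 3.2% higher and 3.68% lower. The median log2 fold change of the 228 was -0.49, with 152 negative estimates (66.7%). Over all genes the median was -0.04, with 51.7% negative.

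Stress signalling genes gave most of these calls. Of 17 tested unfolded protein response and ER stress genes 4 rose and none fell, against 3.2% and 3.68% of all genes, and the list median was -0.18. Of the 4, the ppp1r15a call alone held without the mean-variance trend. ppp1r15a (GADD34), which restores translation after stress, had 1233.6, 1147 and 1010 TPM at 60 dpi, against 301, 192, 251 and 257 TPM at 7 dpi, groups far apart. Its log2 fold change was 2.18 (± 0.25 SE), at a limma adjusted p of 0.000771, called under all 18 alternatives. CHAC1, a glutathione-degrading enzyme induced by ATF4, averaged 570 ± 64.9 TPM at 60 dpi, against 226 ± 64.7 TPM at 7 dpi (log2 fold change 1.37 ± 0.29, adjusted p = 0.0148). That call was lost without 60 dpi replicate 2 or 7 dpi replicate 3 (adjusted p = 0.0547 and 0.056), without replicate 4 of both groups (0.055) and without the trend (0.157). ATF3 averaged 439 ± 153 TPM at 60 dpi, against 132 ± 31.3 TPM at 7 dpi (log2 fold change 1.70 ± 0.32, adjusted p = 0.00933), a call lost without the mean-variance trend (0.103).

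The ATF4 gene atf4b averaged 874 ± 121 TPM at 60 dpi, against 443 ± 81.6 TPM at 7 dpi (log2 fold change 0.99 ± 0.26, limma adjusted p = 0.039), a call lost without any one library except 7 dpi replicate 1 (adjusted p from 0.0511 to 0.137), and also with quantile normalization, without the filter and without the trend (0.126, 0.0796 and 0.266). DDIT3 (CHOP), with 286, 323 and 254 TPM at 60 dpi, against 190, 124, 126 and 136 TPM at 7 dpi, missed the threshold (adjusted p = 0.0528), and passed without 7 dpi replicate 1 (0.0358). Of the sensors, atf6 averaged 41.0 ± 16.3 TPM at 60 dpi, against 48.1 ± 24.8 TPM at 7 dpi, and ern1 averaged 3.46 ± 2.92 TPM at 60 dpi, against 9.13 ± 3.24 TPM at 7 dpi, neither of them called (adjusted p = 0.886 and 0.348). The sensor EIF2AK3 (PERK), named after its values were seen, had 3.13, 4.32 and 0 TPM at 60 dpi, against 29.85, 9.55, 16.6 and 19.0 TPM at 7 dpi. Its groups did not overlap, lower at 60 dpi, and it was not called (log2 fold change -2.72 ± 0.80, limma adjusted p = 0.0648). TRIB3, of the same list and also named after its values were seen, went the other way. It had 122, 209 and 226 TPM at 60 dpi, against 119, 53.4, 70.3 and 72.6 TPM at 7 dpi. The groups were apart by a narrow gap, without a call (log2 fold change 1.24 ± 0.37, limma adjusted p = 0.0652).

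Chaperones outside the name pattern were mixed. HSPA5 (BiP), the main HSP70 of the ER, had 490, 411 and 490 TPM at 60 dpi, against 510.2, 214, 223 and 244 TPM at 7 dpi. Without 7 dpi replicate 1 the groups would be apart, and the log2 fold change over all libraries was 0.73 ± 0.33 (SE, limma adjusted p = 0.215). HSP90B1 (GRP94) averaged 221 ± 23.8 TPM at 60 dpi, against 259 ± 96.4 TPM at 7 dpi, with a log2 fold change of -0.16 ± 0.32 (SE). SERPINH1 (HSP47), the collagen chaperone, had one abundant ID, ENSDARG00000019949, with 382, 1034 and 466 TPM at 60 dpi, against 283, 336, 216 and 383 TPM at 7 dpi (adjusted p = 0.148). The other SERPINH1 ID, ENSDARG00000075954, averaged 26.6 ± 8.28 TPM at 60 dpi, against 40.2 ± 5.56 TPM at 7 dpi. FKBP7, an ER prolyl isomerase, was the only one of 40 tested chaperone genes that was called, with 110, 114 and 116 TPM at 60 dpi, against 36.7, 18.0, 33.3 and 45.6 TPM at 7 dpi. Its log2 fold change was 1.81 ± 0.39 (SE, adjusted p = 0.0173), and the call was lost without 60 dpi replicates 1 or 2 (0.0509 and 0.0621) and without the mean-variance trend (0.0913).

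Glycosylation, tethering and degradation genes had mostly negative estimates and 0 calls by limma. Of 32 tested oligosaccharyltransferase and glycan trimming genes 28 had negative estimates, and the median was -0.96. In 10 of the 32 all 60 dpi libraries lay below all 7 dpi libraries, against 11.0% of all genes tested. None of the 32 was called by limma, while 7 had an unadjusted p under 0.05, all lower. Among all genes tested, 12.4% were lower and 9.6% higher at that unadjusted threshold. Summed, the genes of this list had 462 to 597 TPM at 60 dpi, against 709 to 1145 TPM at 7 dpi. Of 46 ER to Golgi tether and SNARE genes 37 were negative (median -0.75), none was called and 8 had an unadjusted p under 0.05. Of 26 ER-associated degradation genes 17 were negative (median -0.54) and none was called, with 1 higher and 1 lower at an unadjusted p under 0.05. Among 39 Golgi and ARF genes 1 was called, ARF5, a small GTPase that recruits the COPI coat. It had 227, 265 and 193 TPM at 60 dpi, against 657, 379, 439 and 561 TPM at 7 dpi, groups clearly apart. The log2 fold change was -1.13 (± 0.28 SE), at a limma adjusted p of 0.0318, and the call was lost without any one library except 7 dpi replicate 2 (adjusted p from 0.0574 to 0.0942), and also without the filter and without the trend (0.0668 and 0.218). None of the 28 tail-anchor insertion and ER shaping genes was called (median -0.02, 1 at an unadjusted p under 0.05).

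Secreted matrix genes summed to 10140 to 12570 TPM at 60 dpi, against 9319 to 12680 TPM at 7 dpi, overlapping ranges, and the median log2 fold change of 23 tested was -0.04. Of these 23, 3 were called higher and 4 lower, against 3.2% and 3.68% of all genes. Among the calls were DPT and thbs2a, a collagen binder and a thrombospondin, at log2 fold changes of 2.28 and 3.00. POSTN (ENSDARG00000104267), a periostin, was at -3.12.

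**Figure D4:**
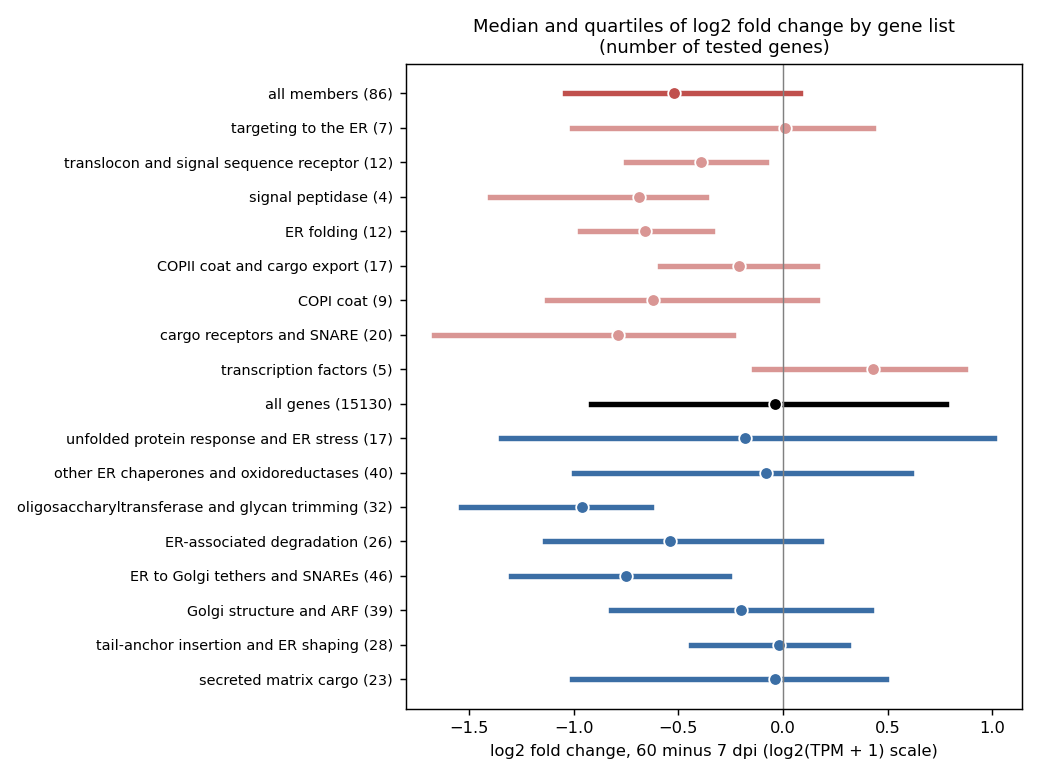
Median (point) and quartiles (bar) of the log2 fold change, 60 minus 7 dpi on the log2(TPM + 1) scale, for all 86 tested secretory genes, their role classes, all genes tested and the other pathway lists, with the number of tested genes in brackets. Cargo receptors (-0.79) and glycosylation genes (-0.96) lie furthest below the median of all genes (-0.04).

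The 6 secretory IDs below the filter were pdia2, pdia8, SEC22C, TMED4, tmed6 and creb3l3a, none above 4.22 TPM in any library. The 86 tested genes include some present in few libraries, since only 72 of the 92 IDs were above 0 in all 7. Of the tested genes, 1, 5 and 8 were listed at 0 in 60 dpi replicates 1, 2 and 4, and 2, 1, 0 and 7 in 7 dpi replicates 1 to 4. An exact 0 in such a table can be a failed estimate.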

How the data were processed

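The deposited values are TPM, per gene ID (31388) and library (7). CASAVA 1.8.2, cutadapt, RSEM 1.2.25 and build Zv9 are named in the submitters' processing notes. The aligner and annotation release are not given in the sources used here. Per the labels' protocols, single reads of 60 nt came from amplified libraries. RSEM shares reads among similar transcripts, so paralogs are uncertain.

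Groups came from the titles. The supplied name table gave a symbol to 25925 IDs (82.6%). Genes with at least 1 TPM in at least 3 libraries (15130) were fitted with limma 3.58.1 in R 4.3.3 on log2(TPM + 1), with the time after injury as its single term and a trend of variance on mean. P-values were two-sided and Benjamini-Hochberg adjusted over all 15130 genes, and all adjusted p-values given are limma's. They weigh the difference between groups against the spread between pools, with each gene's variance drawn toward that trend. Fold changes on this scale understate those of low genes. Tables were made in Python 3.11.15 with numpy 2.4.6 and pandas 2.3.3, and figures with matplotlib 3.10.9.

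The members and lists were chosen with earlier results of these data known. Of the entries in the other pathway lists, 226 matched a symbol, 41 a symbol without its paralog letter and 24 none. Named secretory genes were those called, the 12 most abundant, the one of smallest p in each class and a fixed set; in other lists, up to 3 called genes of smallest p and a fixed set. SSR1, creb3l3l and other genes given by value beyond these were picked after their values were seen. Alternatives covered the pseudocount, filter, scaling, variance model, replicate block and left-out libraries. No sequences are shown.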

Additional observations from a re-analysis of the deposited data

Results flagged for a closer look

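Each gene named by the rule and each summed class was checked in the 4 libraries at 7 dpi, in 65 checks on the log2(TPM + 1) scale for a library far from the rest; groups of 3 cannot be checked this way, and chance alone marks about 1 group in 20. There were 2 such libraries. LMAN1 had 65.5 TPM in 7 dpi replicate 4, with 42.9 to 44.9 TPM in the other 7 dpi libraries. HSPA5 had 510.2 TPM in 7 dpi replicate 1, with 214 to 244 TPM in the others. Values in that library were high beyond HSPA5, with a median-ratio factor of 1.39, against 0.938 to 1.03 in the other 7 dpi libraries. The checks used TPM without such scaling.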

How the results depend on the processing

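Under the 18 alternatives the direction of SEC61G, LMAN2 and creb3l3b did not change. Among all genes, 266 were called higher and 330 lower without the filter, and 186 and 291 without the mean-variance trend. Leaving out 1 library gave 213 to 458 higher and 292 to 669 lower. Secretory genes called higher numbered 1 without the filter, 0 without the trend, 1 without replicate 4 of both groups, and 1 to 2 with 1 library left out. Those called lower numbered 2 with a pseudocount of 5, with a mean TPM of at least 5, with robust empirical Bayes and without replicate 4 of both groups, 5 with quantile normalization, 4 with median-ratio scaling, 6 with scaling over named IDs, 0 without the trend, and 1 to 3 with 1 library left out. Other pathway genes called higher numbered 1 without the trend, 3 without replicate 4 of both groups, and 2 to 8 with 1 library left out. Those called lower numbered 0 without the filter, 2 with a mean TPM of at least 5, 5 with quantile normalization and with median-ratio scaling, 10 with scaling over named IDs, 2 without the trend, 4 without replicate 4 of both groups, and 0 to 3 with 1 library left out. The secretory median was -0.79 with scaling over named IDs, and -0.62 to -0.36 with 1 library left out. The estimate changed sign to -0.07 for SEC24D with scaling over named IDs, and to 0.06 for CREB3L1 with quantile normalization. Without replicate 4 of both groups it was 0.52 for SEC23B, 0.51 for sec23a, -0.82 for KDELR2, 0.20 for SEC61A1 (ENSDARG00000005675) and 0.30 for atf6. With 1 library left out the estimates that changed sign ranged between -1.02 and 0.28 for SEC23B, -0.22 and 0.60 for SEC24D, -0.78 and 0.31 for sec23a, -0.36 and 1.01 for KDELR2, -1.34 and 0.02 for KDELR3 (ENSDARG00000104519), -0.58 and 0.25 for CREB3L1, -0.69 and 0.55 for SEC61B, -0.15 and 0.03 for SSR2, -0.27 and 0.19 for SSR4, -0.42 and 0.20 for atf6, and -0.32 and 0.05 for HSP90B1. The cause of these changes was not tested. The labels do not say that replicate numbers pair the samples. Deviations from the group means correlated at 0.0054, 0.0145 and 0.028 in same-numbered libraries, and at -0.0237 to 0.019 in the others. Same-numbered libraries thus shared little, but so few pairs do not settle whether the numbers pair the samples. With the replicate block, 133 genes were called higher and 189 lower, 0 secretory genes in either direction, 1 other pathway gene higher and 0 lower, and CREB3L1 had an estimate of 0.07; adjusted p was 0.0662 for SEC61G, 0.0862 for LMAN2 and 0.12 for creb3l3b. TPM keeps no depth, so no counting error can be given, and 0.2 to 0.6 ng of RNA per pool limits genes of a few TPM.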
